A study of Homo sapiens with 9 samples.

Results

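The kinesin genes of KHM-5M cells were examined after 24 h with a small molecule whose name in the labels begins with YK. The study used it as an inhibitor of ETS transcription factors. The genes were chosen by name, as the protein-coding genes called KIF followed by a digit together with KIFC1, KIFC2, KIFC3 and KIFAP3. This gave 44 of the 58735 genes measured, of which 19951 were protein-coding. RNA-seq was run on 9 samples of this single human thyroid cancer line, which carries a BRAF and a TERT promoter mutation: 3 samples with the solvent DMSO alone, 3 with 0.3 μM and 3 with 1 μM of that compound. Of the thyroid lineage markers read, PAX8 had 22.8 FPKM (fragments scaled to gene length and library size) in DMSO. TSHR and DUOX2 were at 0 and TG was at 0.00521 FPKM, so these samples held little or no RNA of these 3 defining thyroid markers.

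Kinesins are motor proteins that use ATP to move along microtubules or to take microtubule ends apart. Mitotic kinesins build the spindle, move and align chromosomes and drive cytokinesis, and their genes are known to be expressed mostly in dividing cells. Transport kinesins carry vesicles, organelles and ciliary components, and are used throughout the cell cycle. The 44 genes were sorted by known role into 14 mitotic, 16 transport and 14 other kinesins. The transport class includes KIFAP3, the cargo-binding subunit of the kinesin-2 motor, and the last class includes KIF1BP, a kinesin-binding protein that is not a motor.

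Library totals ran from 16903251 to 18238884 counts. A gene without reads could therefore still have had as many as 3, equal to 0.164 to 0.177 CPM, where CPM is the count scaled by the total of its library, and this limit covers counting error only. Mitochondrial genes took 2.84% to 3.44% of counts and the 10 most abundant genes 5.29% to 5.95%. The methods call replicates biological but describe fewer of them than the 3 samples of each group, and the labels do not say which samples came from separate cultures. The p-values therefore measure the spread between these samples, part of which may be technical. In bulk samples, fewer cells of a type cannot be told apart from less RNA per cell. Where genes overlap, their reads may be shared, and whether strand was used in the counting is not stated in the sources used here.

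In DMSO, the mitotic kinesins were the most abundant class per gene length. Their summed level was 408 FPKM, against 189 FPKM for transport kinesins and 54.6 FPKM for the others. A mean over 1 FPKM was reached by 12 of 14 mitotic, 14 of 16 transport and 7 of 14 other kinesins. KIF20A, which brings the chromosomal passenger complex to the central spindle, had the highest mean of the family at 80.9 FPKM ± 5.48 (SD, n = 3). KIFC1, a minus-end motor that gathers spindle poles, followed at 70.8 ± 3.28 FPKM, and KIF5B, the widely expressed heavy chain of conventional kinesin, at 69.0 ± 5.10 FPKM. The ranges of KIFC1 (68.2 to 74.5) and KIF5B (64.3 to 74.4) overlapped, so these neighbours did not differ beyond their spread. The lowest mean among the 12 abundant mitotic kinesins was 9.04 ± 0.960 FPKM for KIF15, a motor that can act beside KIF11 in keeping the spindle bipolar. The neuronal transport motors were low: KIF5A had 2.44 ± 0.444 FPKM, KIF5C 1.2 ± 0.0974 FPKM and KIF1A 0.0252 ± 0.0204 FPKM.

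**Figure D1:**
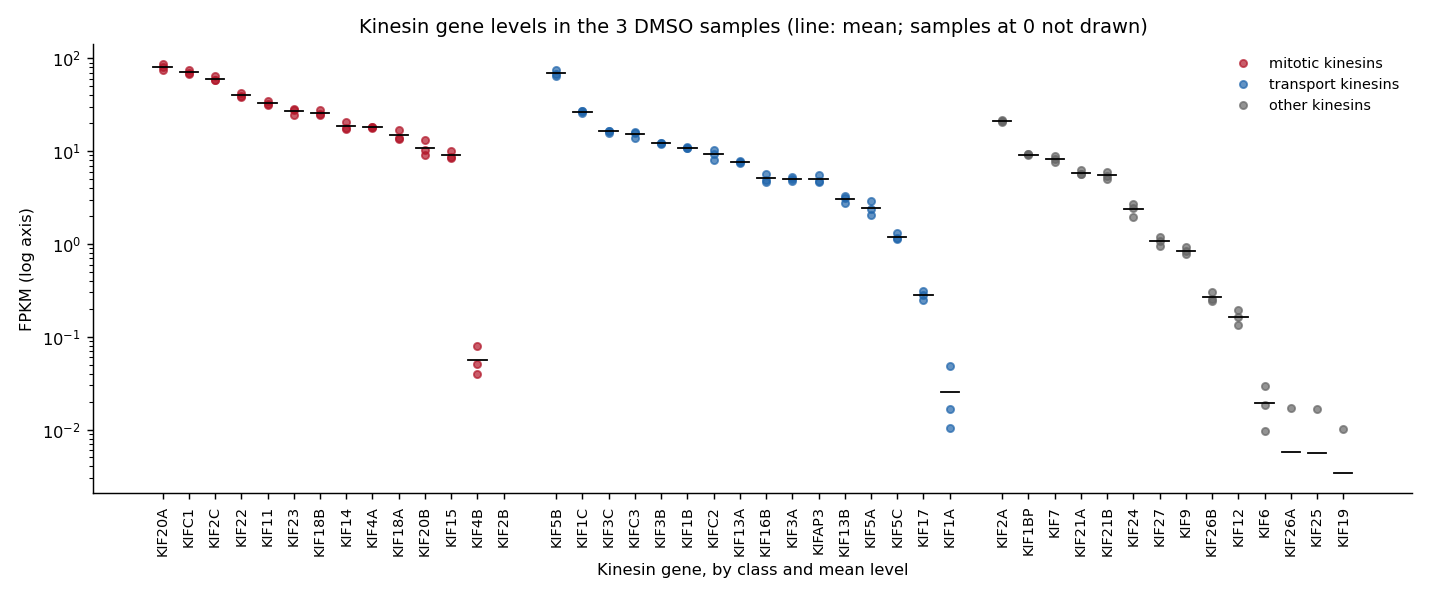
FPKM in the 3 DMSO samples (points; log axis) with their mean (line), for 44 kinesin genes by class on the horizontal axis. 12 mitotic kinesins lie between 9.04 and 80.9 FPKM on average, KIF4B lies at 0.0568 FPKM, and KIF2B, at 0 in every sample, has no point.

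The genes with few reads were left out of the tests. KIF2B had 0 counts in all 9 samples, and KIF4B, an intronless near-copy of KIF4A, had 1 to 10. KIF12 had 3 to 10 counts, KIF6 1 to 6, and KIF26A, KIF25 and KIF19 at most 2. These 7 genes were not tested in any comparison, and KIF1A (3 to 16 counts) was tested only between 1 μM and DMSO. This left 37 kinesin genes at 1 μM (12 mitotic, 16 transport, 9 other) and 36 in each of the other comparisons.

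The first question was whether 1 μM of the compound moved mitotic and transport kinesins alike. 7 of 12 mitotic kinesins tested fell against DMSO (58.3%) and 0 rose, while 3 of 16 transport kinesins rose, 1 fell and 12 did not pass the test. Of the 9 other kinesins tested, 1 fell. A gene was called at an adjusted p under 0.05 in the quasi-likelihood test of edgeR, adjusted by Benjamini-Hochberg over all 15617 genes tested. Over all of them, 17.6% were called, 9.95% lower and 7.67% higher, and over the 12900 protein-coding genes 8.99% were lower and 9.13% higher. The median log2 fold change was -0.22 for mitotic kinesins, 0.15 for transport kinesins and 0.02 for the others, beside -0.01 over all genes tested. The changes were small. Of the 12 kinesin genes called, 1 (KIF20B) also passed the study's 1.5-fold threshold, which 3.91% of protein-coding genes tested passed. No test was run between the classes.

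The count of 7 mitotic kinesins depended on which libraries were kept: it was 3 without replicate 3 of DMSO, 3 without replicate 1 of 1 μM and 3 without replicate 3 of 1 μM. The count of 4 transport kinesins became 2 without replicate 2 of 1 μM and 2 without replicate 3 of 1 μM. KIF18B, KIF23, KIF22 and KIF3B kept their call and direction in each of the 12 alternative fits run.

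**Figure D2:**
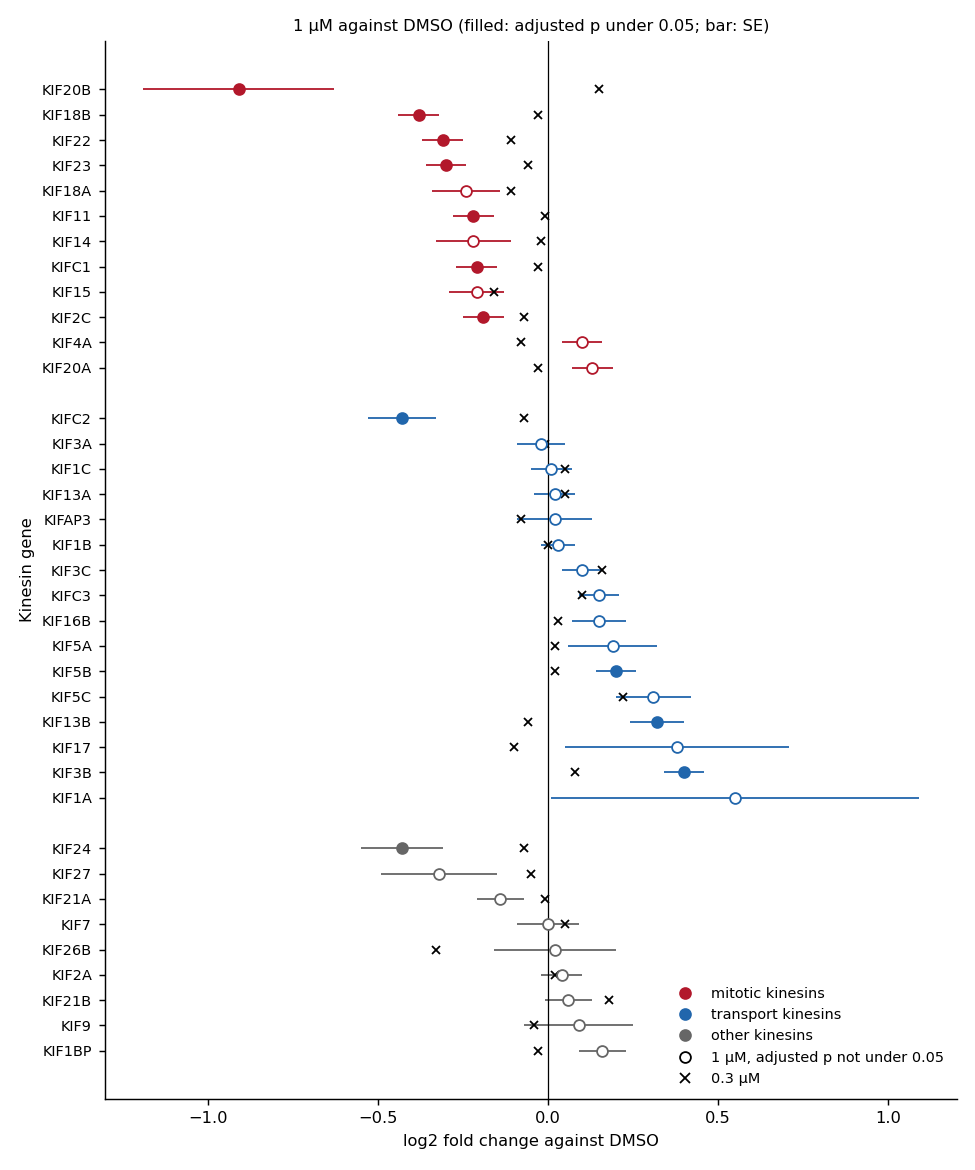
Log2 fold change at 1 μM against DMSO (circles, bars are standard errors, filled where the adjusted p was under 0.05) and at 0.3 μM (crosses), for 37 kinesin genes by class. 10 of 12 mitotic kinesins lie left of 0 at 1 μM and 2 of 16 transport kinesins do.

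The promoters of the 4 genes that kept their call in every fit are shown, since the compound was used against ETS factors and mitotic genes are known to share promoter elements. Each window runs from 250 bases before to 50 after the RefSeq start (GRCh38.p14), 5′ to 3′ on the gene's strand. Capitals mark TTTGAA, the core of the cell cycle genes homology region (CHR), CCAAT, the box bound by NF-Y, and CCGGAAG, an extended ETS motif, each with its reverse complement. KIF18B is at chr17:44947724-44948023 (minus strand), KIF23 at chr15:69414099-69414398 (plus), KIF22 at chr16:29790501-29790800 (plus) and KIF3B at chr20:32277401-32277700 (plus).
KIF18B: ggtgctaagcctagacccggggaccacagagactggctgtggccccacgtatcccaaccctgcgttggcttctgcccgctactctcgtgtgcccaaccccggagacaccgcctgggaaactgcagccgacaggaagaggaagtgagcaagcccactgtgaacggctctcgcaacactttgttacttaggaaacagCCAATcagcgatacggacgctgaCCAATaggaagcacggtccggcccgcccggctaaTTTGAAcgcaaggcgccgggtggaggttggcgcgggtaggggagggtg
KIF23: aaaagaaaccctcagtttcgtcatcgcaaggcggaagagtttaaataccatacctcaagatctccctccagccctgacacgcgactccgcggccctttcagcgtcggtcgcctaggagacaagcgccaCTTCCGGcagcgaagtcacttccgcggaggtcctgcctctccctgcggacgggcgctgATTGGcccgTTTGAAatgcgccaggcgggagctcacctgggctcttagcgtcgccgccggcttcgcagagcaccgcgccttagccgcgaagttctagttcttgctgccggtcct
KIF22: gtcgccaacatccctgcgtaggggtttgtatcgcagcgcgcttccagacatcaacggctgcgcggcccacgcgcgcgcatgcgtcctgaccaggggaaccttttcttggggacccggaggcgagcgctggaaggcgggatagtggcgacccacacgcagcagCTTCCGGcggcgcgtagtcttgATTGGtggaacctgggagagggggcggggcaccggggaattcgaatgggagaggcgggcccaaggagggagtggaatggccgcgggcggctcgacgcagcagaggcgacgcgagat
KIF3B: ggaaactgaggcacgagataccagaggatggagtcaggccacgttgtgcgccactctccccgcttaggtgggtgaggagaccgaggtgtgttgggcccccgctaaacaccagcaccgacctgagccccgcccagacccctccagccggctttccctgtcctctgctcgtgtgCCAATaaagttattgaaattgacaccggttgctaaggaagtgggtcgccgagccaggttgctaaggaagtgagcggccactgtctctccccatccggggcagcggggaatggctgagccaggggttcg

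RefSeq promoters were matched for 36 of 44 kinesin genes, and 8 had none in the table used. The nearest promoter lay within 1000 bases of the gene start in the files for 33 of them. TTTGAA was found in 10 of 14 mitotic promoters (71.4%), in 1 of 12 transport promoters (8.33%) and in 0 of 10 of the others, beside 15.2% of all 35116 promoters of the same length. CCAAT was found in 11 of 14 mitotic promoters (78.6%), 3 of 12 transport promoters (25%) and 4 of 10 of the others (40%), beside 34.6% of all. CCGGAAG was found in 6 of 14 mitotic promoters (42.9%), 0 of 12 transport promoters and 2 of 10 of the others (20%), beside 10.3% of all. This motif was added after the data were seen, and no other extended ETS form was searched, so the contrast may depend on that choice. The bare ETS core GGAA, which CCGGAAG contains, was in 14 of 14 mitotic promoters and in 95.5% of all, and so does not separate the classes.

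TTTGAA and CCAAT occurred together in 9 of 14 mitotic promoters (64.3%) and in 5.90% of all promoters. Counted from the start, with -1 just before it, the first base of TTTGAA in the mitotic promoters lay between -55 and 31. This stretch was set by those matches, so all of them fall in it, and 4.19% of all promoters hold TTTGAA there. In each of these 9 promoters a CCAAT lay before the TTTGAA. The exact letters searched did not sort mitotic kinesins by their response. TTTGAA was in 5 of the 7 that fell and in 4 of the 5 that were not called, and CCGGAAG was in 4 of the 7 and 2 of the 5. KIF22 fell without TTTGAA in its window, but the window holds TTCGAA, a near form that was not searched. KIF4A, with all 3 motifs, was not called. Whether other forms of the CHR core sort the response was not tested. All motif counts given here are matches of letters, not shown to be bound.

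**Figure D3:**
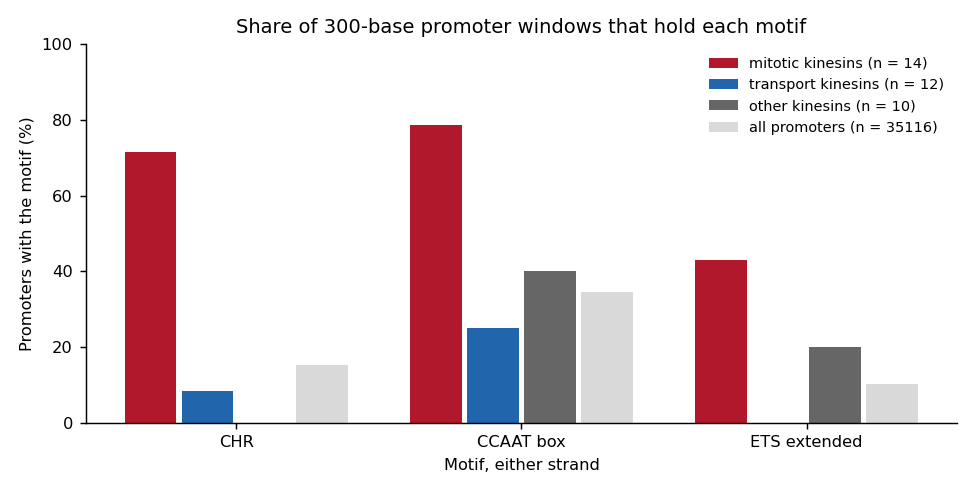
Share of promoter windows (percent) that hold the CHR core, the CCAAT box and the extended ETS motif on either strand, for mitotic, transport and other kinesins and for all promoters. The mitotic bars stand at 71.4%, 78.6% and 42.9%, against 15.2%, 34.6% and 10.3% over all promoters. The extended ETS motif was added after the data were seen.

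Among the motors that organise spindle microtubules, KIF18B, which trims astral microtubules, fell most clearly. KIF18B (ENSG00000186185, chromosome 17 from 44924709 to 44947711, GRCh38) had 27.6, 24.8 and 25.3 FPKM in DMSO, 26.8, 24.0 and 25.3 FPKM at 0.3 μM and 19.4, 20.4 and 20.5 FPKM at 1 μM. The 3 samples at 1 μM lay below the other 6, and the log2 fold change was -0.38 (SE 0.06, adjusted p = 0.00105), a level lower by 23.3%. KIF11, the plus-end motor that pushes the spindle poles apart, had 31.4, 34.5 and 32.3 FPKM in DMSO and 28.5, 28.0 and 28.8 FPKM at 1 μM. At 0.3 μM it had 29.9, 34.6 and 33.0 FPKM, a wider range that spanned that of DMSO, and the 1 μM samples lay below all others. Its log2 fold change at 1 μM was -0.22 (SE 0.06, adjusted p = 0.0163), a call lost in 5 of the 12 alternative fits.

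KIFC1 had 68.2, 74.5 and 69.7 FPKM in DMSO, 71.5, 69.7 and 67.8 FPKM at 0.3 μM and 60.7, 62.4 and 62.4 FPKM at 1 μM. Its 1 μM samples were the lowest 3 of the 9, with a log2 fold change of -0.21 (SE 0.06, adjusted p = 0.0171), a call lost in 4 of the 12 alternative fits, each of which left out a library. KIF2C, a depolymerase that corrects chromosome attachments, had 58.0, 63.8 and 57.9 FPKM in DMSO, 54.6, 58.4 and 58.5 FPKM at 0.3 μM and 52.1, 52.1 and 55.3 FPKM at 1 μM. The groups at 1 μM and in DMSO did not overlap, but the highest 1 μM sample was above the lowest 0.3 μM sample. The log2 fold change was -0.19 (SE 0.06, adjusted p = 0.0404), and this call was lost in 8 of the 12 alternative fits.

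Of the chromosome-bound motors, KIF22 fell and KIF4A was not called. KIF22, which binds DNA along chromosome arms, had 38.4, 42.5 and 39.1 FPKM in DMSO, 36.6, 37.9 and 37.2 FPKM at 0.3 μM and 31.0, 34.4 and 32.3 FPKM at 1 μM. The 3 groups did not overlap, and the log2 fold change at 1 μM was -0.31 (SE 0.06, adjusted p = 0.00383). KIF4A, which works with PRC1 on the central spindle, had 17.9, 18.2 and 18.2 FPKM in DMSO, 16.9, 17.8 and 16.7 FPKM at 0.3 μM and 19.7, 19.2 and 19.8 FPKM at 1 μM. Here the 1 μM samples were the highest, but the log2 fold change of 0.10 (SE 0.06, adjusted p = 0.266) did not pass the test. Reads of KIF4A and its near-copy KIF4B may be split by the counting. KIF4B held 0.326% of their summed counts, and the sum differed by 0.09 on the log2 scale.

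Among the cytokinesis motors, KIF23 and KIF20B fell. KIF23, the motor of the centralspindlin complex, had 24.6, 28.3 and 27.6 FPKM in DMSO, 24.2, 26.3 and 26.6 FPKM at 0.3 μM and 22.0, 21.7 and 22.4 FPKM at 1 μM. Its 1 μM samples were the lowest 3 of the 9, with a log2 fold change of -0.30 (SE 0.06, adjusted p = 0.00425). KIF20A, the paralog of KIF20B, had 75.2, 86.1 and 81.3 FPKM in DMSO, 77.8, 80.4 and 78.9 FPKM at 0.3 μM and 83.8, 90.2 and 94.7 FPKM at 1 μM. Its groups overlapped between DMSO and 1 μM, with a log2 fold change of 0.13 (SE 0.06, adjusted p = 0.178). Without replicate 2 of DMSO, KIF20A was called higher at 1 μM (adjusted p = 0.039). KIF20A overlaps BRD8 and CDC23 on the opposite strand.

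KIF14, which binds citron kinase and PRC1 in late mitosis, had 17.6, 20.7 and 17.3 FPKM in DMSO, 17.5, 19.6 and 17.8 FPKM at 0.3 μM and 13.0, 19.1 and 16.3 FPKM at 1 μM. The groups overlapped through replicate 2 of 1 μM, and the log2 fold change of -0.22 (SE 0.11, adjusted p = 0.193) was not called. Without that library it was -0.36 (adjusted p = 0.0417). KIF18A, which dampens chromosome movements at metaphase, had 14.0, 16.9 and 13.5 FPKM in DMSO, 12.1, 13.8 and 15.4 FPKM at 0.3 μM and 10.8, 14.3 and 13.1 FPKM at 1 μM, with overlapping groups and a log2 fold change of -0.24 (SE 0.10, adjusted p = 0.127). KIF15 had 8.36, 10.1 and 8.63 FPKM in DMSO, 7.90, 8.88 and 7.62 FPKM at 0.3 μM and 8.35, 7.53 and 7.87 FPKM at 1 μM. DMSO and 1 μM were separated by the second decimal only, and the log2 fold change was -0.21 (SE 0.08, adjusted p = 0.101). KIF15 overlaps TMEM42 on the same strand, so part of its reads may belong to that gene. Over the mitotic list, the 3 samples at 1 μM lay below the 3 of DMSO in 7 of 12 genes, which 19.1% of all genes tested did.

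KIF20B, which acts late in cytokinesis, had the largest fold change among the kinesins called and the least even one. Its counts were 1218, 1653 and 1055 in DMSO, 1399, 1602 and 1423 at 0.3 μM, and 450, 1195 and 458 at 1 μM. Replicates 1 and 3 at 1 μM were under every other sample, while replicate 2 lay within the range of DMSO. In FPKM the values were 10.3, 13.3 and 9.03 in DMSO, 11.4, 12.9 and 11.9 at 0.3 μM, and 3.57, 10.1 and 3.95 at 1 μM. The log2 fold change at 1 μM was -0.91 (SE 0.28, adjusted p = 0.0372). It was -1.55 without replicate 2 of 1 μM (adjusted p = 7.41e-05). Replicate 2 had the highest count in DMSO and at 0.3 μM as well, and a fit with a replicate block gave -1.03 (adjusted p = 0.00148). The call was lost without replicate 1 of 1 μM (-0.64, adjusted p = 0.135), without replicate 3 of 1 μM (-0.69, adjusted p = 0.128), without replicate 2 of DMSO (-0.73, adjusted p = 0.0553), without replicate 3 of DMSO (-1.03, adjusted p = 0.0542), and with DESeq2 (-0.9, adjusted p = 0.238).

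That library stood apart in few genes. The log2 CPM of replicate 2 at 1 μM minus the mean of replicates 1 and 3 was 1.41 for KIF20B, the second highest of 8529 genes with a mean log2 CPM over 4, where the 99th percentile was 0.31. CENPE, a kinetochore motor of the kinesin-7 family whose symbol places it outside the KIF names, had a difference of 1.36, and CENPF, a kinetochore protein, one of 1.08. KIF14 followed among the kinesins at 0.39 and KIF18A at 0.25. KIF18B (0.03), KIFC1 (0.01) and KIF23 (-0.04) showed no such difference. Adenine made up 38.6% of the longest KIF20B transcript, 40.6% of that of CENPE and 36.7% of that of CENPF, beside a median of 26.2% over these genes. Of the 30 genes with the largest differences, 26 were above the 90th percentile of 31.3%. Also above it were KIF18A (36.0%) and KIF14 (34.1%), and KIF15 (35.2%), KIF23 (32.4%) and KIF11 (32.4%). The library differences of KIF15, KIF23 and KIF11 were -0.11, -0.04 and -0.04. The part of this library difference or of base composition in the KIF20B result was not tested.

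**Figure D4:**
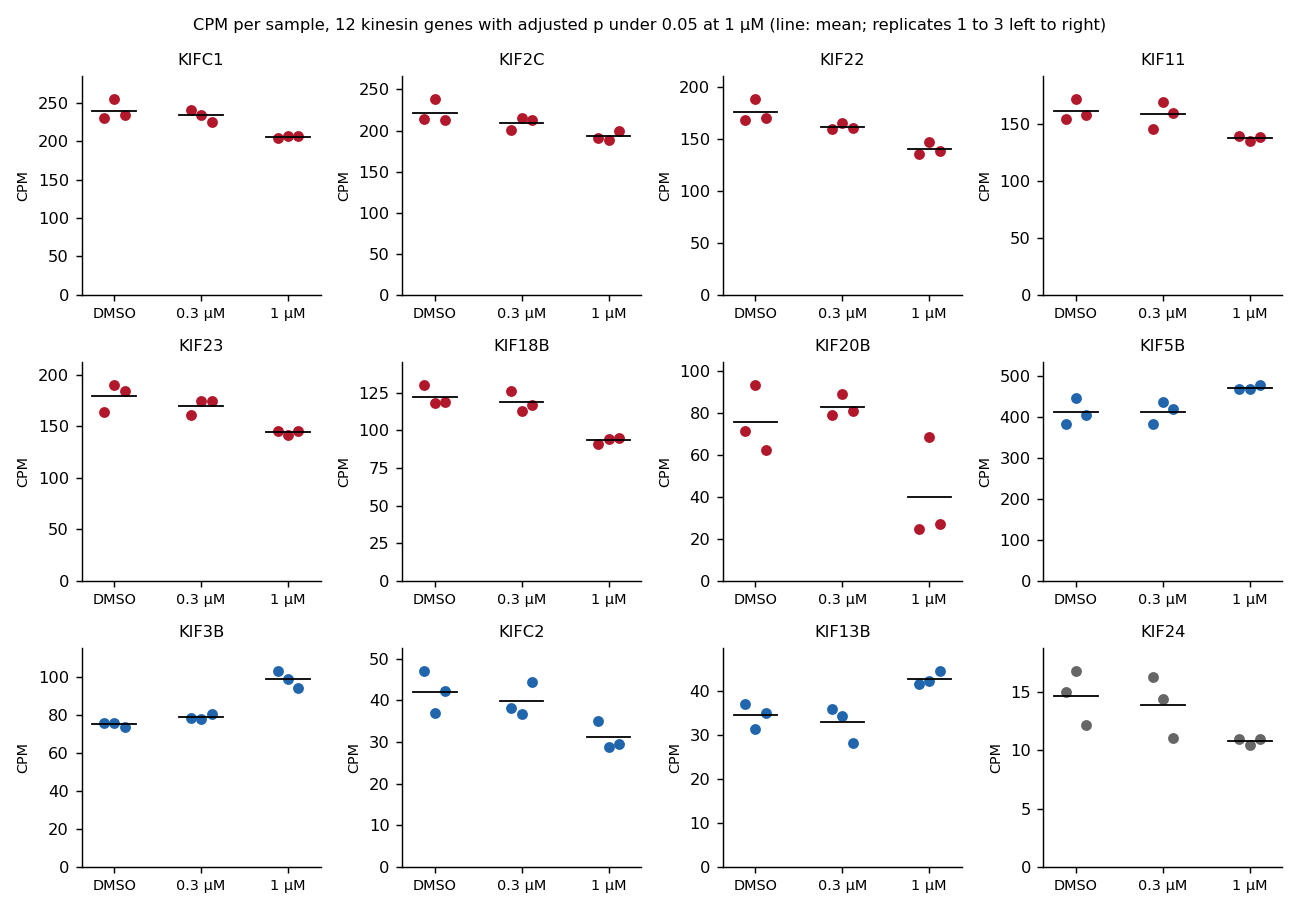
CPM in each of the 9 samples (points, replicates 1 to 3 from left to right) with the group mean (line), for the 12 kinesin genes with an adjusted p under 0.05 at 1 μM, on axes that start at 0; red marks mitotic, blue transport and grey other kinesins. In KIF20B the middle point at 1 μM lies with the DMSO samples, while in the other 11 genes the 1 μM samples lie wholly above or wholly below DMSO.

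Of the transport kinesins, KIF3B rose most clearly. KIF3B, a motor subunit of the kinesin-2 complex that serves intraflagellar transport (ENSG00000101350, chromosome 20 from 32277664 to 32335011), had 12.3, 12.1 and 12 FPKM in DMSO, 12.7, 12.7 and 13.2 FPKM at 0.3 μM and 16.7, 16.4 and 15.6 FPKM at 1 μM. The 1 μM samples were above the other 6, and the log2 fold change was 0.40 (SE 0.06, adjusted p = 0.00046), a level higher by 32.3%. Its complex partners did not pass the test: KIF3A had a log2 fold change of -0.02 (95% interval -0.16 to 0.13) and KIFAP3 one of 0.02 (-0.18 to 0.23). KIF3C, an alternative partner of KIF3A, had 0.10 (-0.02 to 0.21) and KIF17, the homodimeric kinesin-2, 0.38 (-0.27 to 1.04) on 16 to 36 counts per sample.

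The conventional kinesin heavy chain KIF5B had 64.3, 74.4 and 68.4 FPKM in DMSO, 64.6, 73.9 and 71.7 FPKM at 0.3 μM and 79.2, 80.3 and 82.0 FPKM at 1 μM. The 1 μM samples were above all others, with a log2 fold change of 0.20 (SE 0.06, adjusted p = 0.0279), a call lost in 6 of the 12 alternative fits. The neuronal heavy chains were not called. KIF5C had 0.31 (SE 0.11, adjusted p = 0.0639) with all 3 samples at 1 μM above DMSO, and KIF5A 0.19 (SE 0.13, adjusted p = 0.346).

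In the kinesin-3 family, which moves vesicles and endosomes, KIF13B rose. It had 3.30, 2.77 and 3.12 FPKM in DMSO, 3.22, 3.07 and 2.56 FPKM at 0.3 μM and 3.73, 3.84 and 4.04 FPKM at 1 μM. The 1 μM samples were again the highest 3, with a log2 fold change of 0.32 (SE 0.08, adjusted p = 0.0152). The call was lost without replicate 3 of 1 μM (adjusted p = 0.0689). Its close relative KIF13A had 0.02 (95% interval -0.09 to 0.13). KIF1B had 0.03 (-0.07 to 0.14), KIF1C 0.01 (-0.11 to 0.12) and KIF16B 0.15 (-0.01 to 0.32). KIF1A, with few reads, had 0.55 (-0.52 to 1.62).

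KIFC2 was the transport kinesin that fell. KIFC2 and KIFC3 carry the motor at the C-terminal end, as the mitotic KIFC1 does. KIFC2 had 10.4, 8.13 and 9.41 FPKM in DMSO, 8.52, 8.18 and 10 FPKM at 0.3 μM and 7.84, 6.49 and 6.68 FPKM at 1 μM. Its 1 μM samples were the lowest 3 of the 9, with a log2 fold change of -0.43 (SE 0.10, adjusted p = 0.00954). The call was lost without replicate 2 of 1 μM (adjusted p = 0.0526). KIFC3 had a log2 fold change of 0.15 (SE 0.06, adjusted p = 0.131) with the 3 samples at 1 μM above DMSO.

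Among the other kinesins, KIF24 fell. KIF24, a centriolar kinesin that holds back cilium formation, had 2.42, 2.68 and 1.97 FPKM in DMSO, 2.63, 2.32 and 1.81 FPKM at 0.3 μM and 1.77, 1.73 and 1.80 FPKM at 1 μM. Its 1 μM samples were the lowest 3, by a narrow margin over the lowest sample at 0.3 μM, with a log2 fold change of -0.43 (SE 0.12, adjusted p = 0.0269). The call was lost in 5 of the 12 alternative fits, each of which left out a library. KIF24 overlaps UBAP1 on the opposite strand. The depolymerase KIF2A, which also acts at spindle poles, had 0.04 (95% interval -0.07 to 0.15) and overlaps IPO11 on the same strand. KIF7, a ciliary regulator of Hedgehog signalling, had 0.00 (-0.18 to 0.18). KIF21A (-0.14), KIF21B (0.06), KIF27 (-0.32), KIF9 (0.09), KIF26B (0.02) and KIF1BP (0.16) were not called.

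The class sums, which add up the same values and so are not separate evidence, also moved apart. Summed FPKM over all mitotic kinesins was 391, 434 and 400 in DMSO, 387, 404 and 397 at 0.3 μM and 353, 379 and 378 at 1 μM. For transport kinesins it was 186, 192 and 190 in DMSO, 188, 196 and 201 at 0.3 μM and 208, 211 and 208 at 1 μM. The ratio of mitotic to transport FPKM was thus 2.16 ± 0.0896 (SD, n = 3) in DMSO, 2.03 ± 0.0551 at 0.3 μM and 1.77 ± 0.0700 at 1 μM, with ranges of 2.10 to 2.26, 1.97 to 2.07 and 1.69 to 1.82 that did not overlap. Without KIF20B it ran from 2.05 to 2.19 in DMSO and from 1.68 to 1.80 at 1 μM. A ratio within a sample shows unequal change between the classes, and no test was run on it. Such sums lean on the abundant genes. The mean of KIF5B was 69.0 FPKM in DMSO and 80.5 FPKM at 1 μM. That of KIF20A, the most abundant mitotic kinesin, was 80.9 and 89.6 FPKM. The median mitotic kinesin, as log2 CPM relative to the mean of DMSO, was at -0.24, -0.18 and -0.17 in the 3 samples at 1 μM, and the median transport kinesin at 0.14, 0.15 and 0.21.

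**Figure D5:**
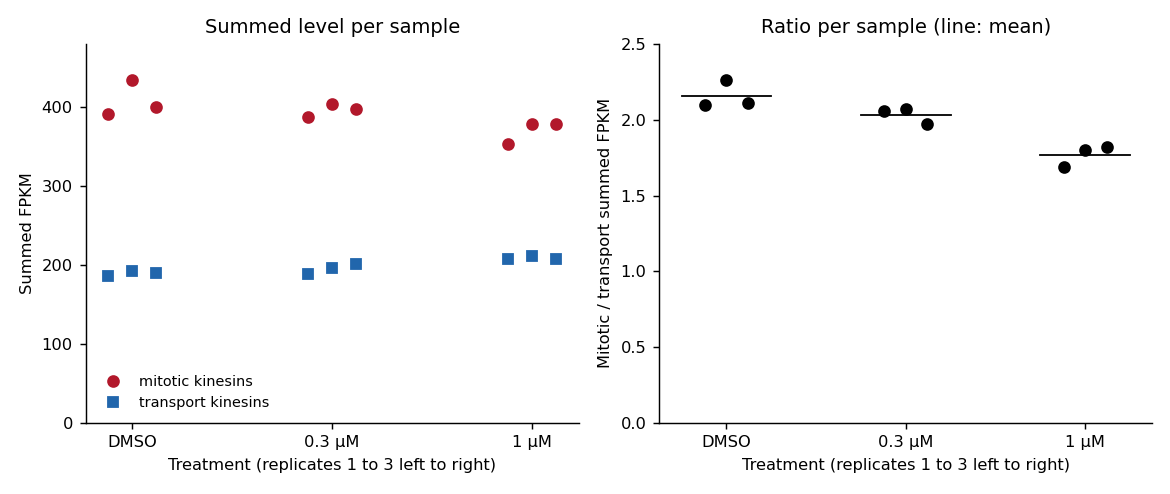
Left, summed FPKM of mitotic (circles) and transport (squares) kinesins in each sample; right, their ratio with the group mean (line), by treatment, on axes that start at 0. The ratio lies between 2.10 and 2.26 in DMSO, between 1.97 and 2.07 at 0.3 μM and between 1.69 and 1.82 at 1 μM.

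At 0.3 μM against DMSO, 0 of 36 kinesin genes were called, as were 0 of the 15762 genes tested (0%) with edgeR and 0 kinesin genes with DESeq2. An unadjusted p under 0.05 was reached by 1 kinesin, KIF3C, with a log2 fold change of 0.16 (SE 0.07), beside 3.77% of all genes tested. KIF3C had 16.5, 15.8 and 16.5 FPKM in DMSO and 18, 17.8 and 18.8 FPKM at 0.3 μM, without overlap. The median log2 fold change was -0.05 for mitotic and 0.02 for transport kinesins.

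Between the doses, 1 μM against 0.3 μM, 9 of 36 kinesin genes were called, beside 12.6% of the 15583 genes tested. KIFC1, KIF22, KIF23, KIF18B, KIF20B and KIFC2 were lower at 1 μM (6.75% of all genes were), and KIF5B, KIF3B and KIF13B were higher (5.85% of all genes were). The comparison shares the 1 μM samples with the one against DMSO and so is not separate evidence. The log2 difference was -0.34 (SE 0.07, adjusted p = 0.00317) for KIF18B and 0.33 (SE 0.06, adjusted p = 0.00313) for KIF3B, and these 2 calls held in each alternative fit. KIF20A (0.18, adjusted p = 0.0563) and KIF4A (0.19, adjusted p = 0.066), the mitotic kinesins with a log2 fold change above 0 against DMSO, had higher levels in all 3 samples at 1 μM than in any at 0.3 μM but did not pass the test. KIF11 and KIF2C, called against DMSO, had differences of -0.19 (adjusted p = 0.0574) and -0.11 (adjusted p = 0.259). In 3 of the 12 alternative fits KIF20A was called higher between the doses, and in 3 KIF11 was called lower.

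The proteins that work with mitotic kinesins were read from a list of 17 partners, all tested. At 1 μM, 8 fell, 1 rose and 8 were not called, beside 9.95% of all genes lower and 7.67% higher, with a median log2 fold change of -0.16. PRC1, the antiparallel microtubule bundler that positions KIF4A, fell by 1.14 on the log2 scale (adjusted p = 0.00079), though its level in DMSO was low, at 1.29 FPKM. CENPE fell by 1.11 (adjusted p = 0.0149), with the overlap between groups described for KIF20B. AURKB, the kinase of the chromosomal passenger complex that KIF20A carries, fell by 0.54, from 48.3 to 33.6 FPKM (adjusted p = 6.1e-05). AURKA, the spindle pole kinase, rose by 0.23 (adjusted p = 0.00876), and TPX2, its activator and a binding partner of KIF11 and KIF15, had -0.05 (adjusted p = 0.57).

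Light chains and cargo adaptors of transport kinesins showed no common direction. Of 20 tested of 23 listed, 3 rose (15%), 3 fell (15%) and 14 were not called, beside 7.67% of all genes higher and 9.95% lower, with a median of 0.08. TRAK2, which links kinesin-1 to mitochondria, rose by 0.68 (adjusted p = 3.2e-05). STARD9, a kinesin-3 motor despite its name, is neither a light chain nor an adaptor but was counted in this list. It fell by 0.58 (adjusted p = 0.000641), and MAPK8IP3, a kinesin-1 adaptor known as JIP3, fell by 0.54 (adjusted p = 0.000195). For cytoplasmic dynein and dynactin, the minus-end motor and its activator, 2 of 26 tested rose (7.69%) and 1 fell (3.85%), beside 7.67% of all genes higher and 9.95% lower, and the median was 0.03. DYNC1H1, the dynein heavy chain, rose by 0.17 (adjusted p = 0.0274), the adaptor BICD2 rose by 0.21 (adjusted p = 0.0196), and ACTR1B, a dynactin subunit, fell by 0.27 (adjusted p = 0.0129).

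Cell cycle genes outside the kinesins moved as well. Of 16 G2/M phase genes, 7 fell, 2 rose and 7 were not called, beside 9.95% of all genes lower and 7.67% higher, with a median of -0.16, close to that of the mitotic kinesin partners, with which this list shares PLK1, AURKA and AURKB. CENPF fell by 0.81 (adjusted p = 0.0201, groups overlapping), CDK1 by 0.68 (adjusted p = 4e-05) and TOP2A by 0.55 (adjusted p = 6.2e-05). Of 14 S phase genes, 12 fell and 0 rose, beside the same shares of all genes, with a median of -0.31, below that of the mitotic kinesins. CDC45 fell by 0.62 (adjusted p = 6.7e-05), CDC6 by 0.40 (adjusted p = 0.00412) and GINS2 by 0.39 (adjusted p = 0.0173). The part of a change in cell cycle phases in the kinesin result was not tested.

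Of the other marker genes read, few were called. KRT8 (191 FPKM), KRT18 (132 FPKM) and VIM (454 FPKM) were high in DMSO and not called at 1 μM. The epithelial markers EPCAM (2.09 FPKM) and CDH1 (0.0275 FPKM) were low in DMSO. EPCAM was not called and CDH1 was not tested. Of 7 epithelial and mesenchymal markers tested, FN1 rose, by 0.30 (adjusted p = 0.0183). Of 8 blood and endothelial markers, PTPRC and HBB were at 0 in DMSO and 2 could be tested. Of these, CD14 was at 0.479 FPKM in DMSO and 1.02 FPKM at 1 μM (adjusted p = 0.0484), and VWF was not called.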

How the data were processed

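RNA from 9 samples of KHM-5M cells (3 groups of 3) was sequenced from poly(A)-selected libraries, per the labels. The authors aligned the reads to GRCh38 with HISAT2 2.0.5 and counted them per gene. The methods name HTseq for this step and the submitters' processing notes name featureCounts 1.5.0-p3. The deposited counts are whole numbers with no normalization. The deposited FPKM values, made by the authors, divide each count by gene length and library size. The table also holds the authors' group means, log2 fold changes, p-values and adjusted p-values from DESeq2 (1.20.0 in the notes), which were not used. The methods describe fewer biological replicates than the 3 samples per group of the labels, and all 3 were used.

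From the counts, edgeR 4.0.16 in R 4.3.3 was run on the groups compared: filterByExpr with a minimum count of 10, TMM, glmQLFit and glmQLFTest, with Benjamini-Hochberg adjustment over all genes tested and a threshold of 0.05. DEGs also had an absolute log2 fold change over 0.587. The standard error is the log2 fold change divided by the root of F. The 95% intervals use the normal distribution with this standard error and can be narrower than the test implies. For KIF20A at 1 μM the interval was 0.01 to 0.26, while the unadjusted p of the edgeR test was 0.0601. Log2 CPM used a prior count of 2. Python 3.11.15 was used for tables and figures. Kinesin genes, classes and other gene lists were chosen with earlier results of these data known. All kinesins are accounted for, and from each other list the text names up to 3 called genes with the largest changes; AURKB, AURKA, TPX2, FN1, CD14, VWF and the markers named at a level were added after their values were seen. Within groups, chi-square per degree of freedom between samples was 3.20 to 10.7, so none was a copy. Promoters came from RefSeq (GRCh38.p14); CCGGAAG was added to the motifs after the data were seen. The fit was tested on simulated data first. Alternatives were DESeq2 1.42.0, RLE factors, no filter, all 9 samples in a single fit, a replicate block, each sample left out, other class borders, the unadjusted p and, added after the data were seen, a GC correction by lowess with a span of 0.3.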

Additional observations from a re-analysis of the deposited data

How the results depend on the processing

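No kinesin changed direction while called, in any comparison or alternative. At 1 μM, 4 of 12 calls held in every alternative fit, 8 were lost in at least 1 and 6 uncalled genes were gained in at least 1; between the doses, 2 of 9 held, 7 were lost and 4 gained. Leaving out a single sample at a time, the kinesins called at 1 μM numbered 5 to 11 (12 with all samples; 7 without replicate 3 of DMSO, and 6, 7 and 5 without replicates 1, 2 and 3 of 1 μM), mitotic kinesins 3 to 7, transport kinesins 2 to 5 and DEGs 0 to 1. Between the doses these ranges were 3 to 9 for all kinesins (5 without replicate 2 of 0.3 μM, and 5 and 3 without replicates 2 and 3 of 1 μM), 1 to 5 for mitotic kinesins (1 without replicate 2 of 0.3 μM) and 1 to 4 for transport kinesins. The mitotic median at 1 μM ranged from -0.25 to -0.15, the last without replicate 2 of DMSO. DESeq2 gave 0 kinesin DEGs. At an unadjusted p under 0.05, 1 kinesin, a transport kinesin, passed at 0.3 μM, and 14 kinesins, 8 of them mitotic, passed between the doses. With all kinesins that are not mitotic counted as transport, their median at 1 μM was 0.06. Across all genes kept by the filter, deviations of samples with the same replicate number showed little correlation (from -0.022 to 0.082). Single genes could differ from this. KIF20B had its highest count in replicate 2 of each group, and the replicate block gave it -1.03 at 1 μM (adjusted p = 0.00148). The fit with a replicate block called 3 mitotic kinesins between the doses, where 5 were called without the block. The causes of these changes were not tested.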
